A study of Homo sapiens with 17 samples.

Results

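The response described here is the effect of rapamycin on gene expression in L363 cells that was shared by cells with and without MS275, taken over all 17 arrays of the series. L363 is an established human plasma cell line, and its labelled cancer type is multiple myeloma. The 11 arrays of cells given rapamycin were set against the 6 arrays of cells given none, in a linear model with MS275 (present or absent) as a covariate. Without MS275 there were 3 arrays of untreated control cells, 3 arrays at 1 nM rapamycin and 3 arrays at 10 nM rapamycin. With 0.5 uM MS275 there were 3 arrays of cells given MS275 alone, 3 arrays of the combination at 1 nM rapamycin and 2 arrays of the combination at 10 nM, a group from which the submitters had removed 1 array after quality control. All cells, the untreated ones included, were profiled at 48 h. Each of 19775 genes was represented by the probe set that carried its name alone and had the highest mean signal over the 17 arrays, and all values are log2 signals as deposited.

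Rapamycin binds the small protein FKBP12, and the pair inhibits mTOR complex 1, the kinase complex that couples amino acids, growth factors and energy to protein, lipid and nucleotide synthesis. Its substrates include the S6 kinases and the translation repressor 4E-BP1, and among the transcription factors that depend on it are ATF4, which drives amino acid uptake and synthesis genes, and the SREBP proteins, which drive sterol and fatty acid synthesis genes. MS275, also called entinostat, inhibits class I histone deacetylases. Plasma cells secrete large amounts of immunoglobulin and express CD38 and syndecan-1 (SDC1) on their surface.

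The mean log2 signal of the 17 measured plasma cell markers lay between 9.19 and 9.69 on every array. The same mean was 3.95 to 4.51 over 10 myeloid markers, 4.51 to 5.08 over 13 T and NK cell markers, and 4.89 to 5.37 over 12 epithelial and fibroblast markers. Signals of different probe sets are not on a common scale, so these means show only that each list was steady over the arrays. None of the T and NK cell, myeloid, red cell, or epithelial and fibroblast markers passed the test for rapamycin. On 2 arrays, the first replicates of the control and of the combination at 1 nM, the values were more compressed than on the others. Their standard deviation over probe sets was 2.14 to 2.15 and their median 5.35 to 5.36, against 2.27 to 2.37 and 5.09 to 5.199 on the other 15 arrays. Some counts of called genes moved by over 1.5 times without these 2 arrays. For all genes, and for the lists over both states, both values are given below.

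Over both MS275 states, rapamycin lowered more genes than it raised. In the limma test with Benjamini-Hochberg adjustment over all genes, 526 genes (2.66%) passed an adjusted p of 0.05, 419 of them lower (2.12%) and 107 higher (0.541%) with rapamycin. Among them, 125 were lower and 17 higher by 1 or more on the log2 scale. The median change over all genes was -0.04, and 95% confidence intervals for single genes reached a median of 0.32 to either side. In 171 of the 419 genes that fell (0.865% of all genes tested) and 38 of the 107 that rose (0.192%), the arrays with and without rapamycin did not overlap in either MS275 state. Leaving out both compressed arrays gave 867 genes, 629 lower and 238 higher, of which 496 were among the 526. Since RNA was taken from whole cultures, fewer cells of a kind and less RNA per cell cannot be told apart in any of these changes.

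The response was then split by MS275 state, using contrasts that share no arrays but share the estimate of the spread. Without MS275 (6 arrays with rapamycin against 3 control arrays), limma called 258 genes (1.3%), 208 lower (1.05%) and 50 higher (0.253%). With MS275 (5 combination arrays against 3 arrays of MS275 alone), it called 104 genes (0.526%), 96 lower (0.485%) and 8 higher (0.0405%). A set of 52 genes (0.263%) was called in both states in the same direction, 48 lower (0.243%) and 4 higher (0.0202%), which is 20.2% of the genes called without MS275 and 50% of those called with it. Of the 526 genes called over both states, 210 were called without MS275, 94 with it, 52 in both and 274 in neither. A call over both states therefore need not hold in each state. Most genes called in one state moved the same way in the other without passing there. Of the 208 genes that fell without MS275, 205 (98.6%) were also lower with MS275, at a median of -0.67 against -1.06. Of the 96 genes that fell with MS275, 94 (97.9%) were also lower without it, at a median of -0.80 against -1.26. Among all genes, 51.2% had the same sign in both states. The genes of each set were chosen by their change in one state, so a smaller median in the other state can follow from that choice and is no comparison of the states.

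**Figure D1:**
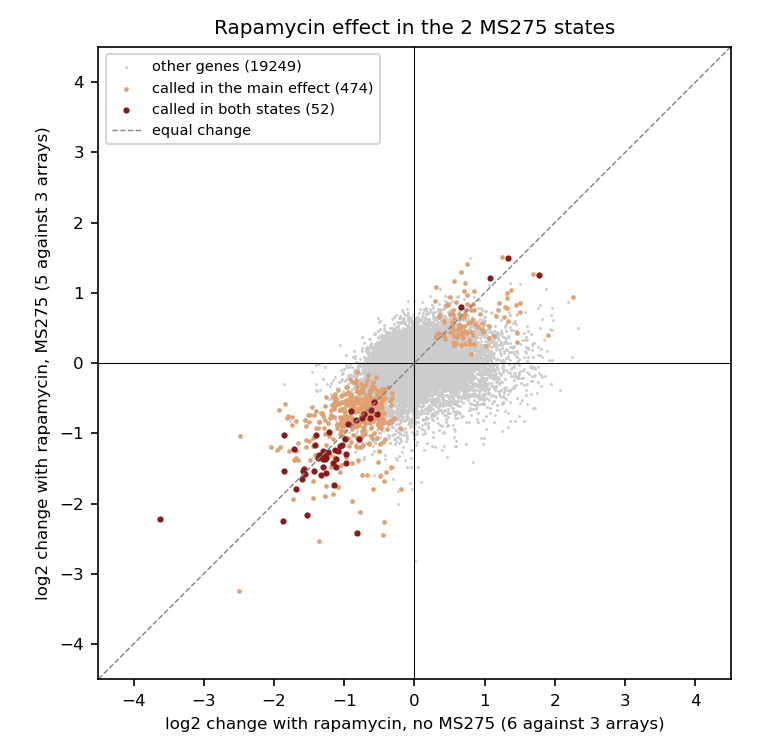
Each point is 1 of the 19775 genes, with the log2 change under rapamycin without MS275 (6 against 3 arrays) on the x axis and with MS275 (5 against 3 arrays) on the y axis. The 52 genes called in both states fell in both (48, lower left) or rose in both (4, upper right), and the other genes called over both states also have the same sign in each.

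Single arrays weighed heavily on these counts. With each of the 17 arrays left out in turn, the count over both states ranged from 369 (without MS275 replicate 1) to 786 (without replicate 1 of the 1 nM combination). The count without MS275 became 412 without control replicate 2, 120 without control replicate 3, 142 and 170 without replicates 1 and 3 at 1 nM rapamycin, and 127 and 166 without replicates 1 and 2 at 10 nM. The count with MS275 fell to 29 and 48 without replicates 1 and 3 of MS275 alone, and to 50 or 46 when replicate 1 or 2 of the combination at 10 nM was dropped. The count of genes called in both states was 28 without control replicate 3, 12 and 23 without replicates 1 and 3 of MS275 alone, and 32 without replicate 1 at 1 nM rapamycin. It was 33 without replicate 2 of the 1 nM combination, and 25 or 22 when replicate 1 or 2 of the combination at 10 nM was dropped. The number of rises among them, 4 with all arrays, ranged from 1 to 9. These are counts of calls in each fit and need not be the same genes. Without both compressed arrays the count was 263 with MS275 (213 lower and 50 higher) and 109 in both states (97 lower and 12 higher). Of the 52 genes, 45 were among the 109. Calls of 6 of the 52 genes in both states were kept whichever array was left out: MYBL2, CD38, NEU1, EBP, COQ8A and ANG, the last a secreted ribonuclease named here after its values were seen.

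**Figure D2:**
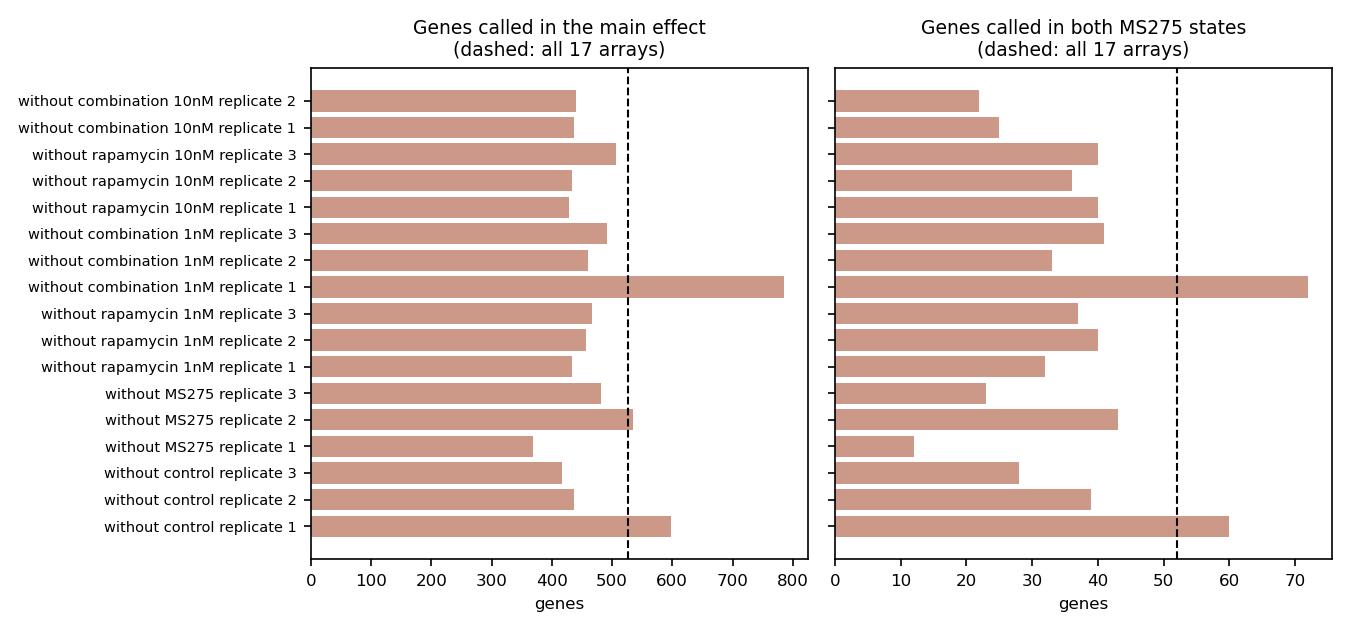
Bars give the number of genes called over both states (left) and in both states separately (right) when the named array was left out, and the dashed lines mark 526 and 52, the counts with all 17 arrays. The left panel runs from 369 to 786 and the right panel from 12 to 72.

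Amino acid and stress genes held the largest falls. Of 13 measured amino acid transporters, 7 fell and none rose, against 2.12% lower among all genes. The list's median change was -0.71 (-0.88 without MS275 and -0.51 with it), against -0.04 for all genes, and 10 of the 13 were lower in both states. Of 30 measured ATF4 targets of the stress response and amino acid synthesis, 9 fell and none rose, with a median of -0.37. That count was 5 without control replicate 3 and 4 without MS275 replicate 1. Among 17 cytosolic aminoacyl-tRNA synthetases, which charge tRNAs with amino acids, only CARS1 passed (-0.47 ± 0.12 (SE), adjusted p = 0.0468). That is 5.88% of the list, against 2.12% lower among all genes, and CARS1 kept its call in 4 of 17 fits that left out 1 array. ATF4 itself measured -0.35 ± 0.23 (SE) and did not pass (adjusted p = 0.636).

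INHBE, which encodes the beta E subunit of the activin family of secreted factors and is a target of ATF4, had the largest fall. Its log2 signal was 10.48, 9.48 and 9.77 on the control arrays and 5.33 to 6.60 (median 6.47) on the 6 arrays of rapamycin without MS275. With MS275 it was 9.60, 7.63 and 8.68 without rapamycin, against 6.96, 5.64 and 6.48 at 1 nM and 5.79 and 7.21 at 10 nM. No array with rapamycin reached an array without it in either state. The change was -2.94 ± 0.34 (SE), a 7.70-fold lower signal (adjusted p = 0.000173), at -3.63 without and -2.22 with MS275.

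SLC1A4, which carries alanine, serine and cysteine into cells, had the same size of change in the 2 states. Controls measured 10.36, 10.50 and 9.78 and the 6 rapamycin arrays 8.15 to 9.14 (median 8.59), and with MS275 the values were 10.27, 10.49 and 9.80 against 8.20, 8.998, 8.56, 8.71 and 8.59. All arrays with rapamycin were lower than all arrays without it. The change was -1.56 ± 0.17 (adjusted p = 0.000171), at -1.55 without and -1.58 with MS275. SLC7A5, the light chain of the large neutral amino acid carrier LAT1, measured 11.78, 11.19 and 11.08 in controls and 9.37 to 9.65 (median 9.46) with rapamycin. Its signal was already lower with MS275 alone, at 10.19, 9.36 and 9.41, and lower still in the combinations, at 8.82, 8.48, 8.68, 8.49 and 8.69. The arrays did not overlap in either state, and the change over both was -1.46 ± 0.16 (adjusted p = 0.000173).

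SLC7A11, the cystine carrier, fell by 1.78 on the log2 scale over both states (SE 0.28, adjusted p = 0.00123). It measured 8.68, 8.10 and 8.90 in controls and 5.88 to 6.44 (median 6.01) with rapamycin, with no overlap. With MS275 the values were 8.22, 6.64 and 8.07 against 6.72, 6.17, 6.64, 6.26 and 7.22, which overlap, and this contrast did not pass (-1.04, adjusted p = 0.27). SLC38A5, a glutamine and asparagine carrier, changed by -0.95 ± 0.16 (adjusted p = 0.00269) with separate arrays in both states. DDIT4, also called REDD1, an inhibitor of mTOR complex 1, changed by -2.86 ± 0.47 (adjusted p = 0.00215). Its controls spread from 9.12 to 11.06 and its 6 rapamycin arrays from 6.12 to 9.57 (median 8.17), so these overlapped. With MS275 its values were 9.72, 10.58 and 8.67 against 6.37, 6.82, 6.13, 6.49 and 6.28, which did not. PHGDH, the first enzyme of serine synthesis, changed by -1.61 ± 0.29 and PCK2, the mitochondrial form of PEP carboxykinase, by -1.19 ± 0.23, each with separate arrays only without MS275.

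Promoter sequence was read for these lists because ATF4 binds C/EBP-ATF elements. The letters TGATGNAA, searched on both strands in RefSeq promoter windows (GRCh38.p14) of 300 bases, 250 before and 50 from the transcription start on, were in 3 of 12 amino acid transporter windows and in 4 of 24 windows of the ATF4 target list. The share was highest in the aminoacyl-tRNA synthetases, 5 of 14 windows (35.7%), of which only CARS1 passed in the test above. The letters were in 3.16% of the windows of all genes that fell, in 2.62% of the windows of genes tested and in 3.67% of all 27305 windows. The letters were in none of the 41 windows found for the 48 genes that fell in both states. Shown are 3 genes that fell over both states and hold the letters, chosen after their values were seen, with the match in capitals. They are ASNS, asparagine synthetase (chr7:97872359-97872658, minus strand, positions -68 to -61 from the start), CHAC1, which degrades glutathione (chr15:40953221-40953520, plus strand, positions -209 to -202, match on the opposite strand), and SLC3A2, the heavy chain partner of SLC7A5 (chr11:62881449-62881748, plus strand, positions 37 to 44, match on the opposite strand). A match is a description of the letters and not evidence of binding.
ASNS: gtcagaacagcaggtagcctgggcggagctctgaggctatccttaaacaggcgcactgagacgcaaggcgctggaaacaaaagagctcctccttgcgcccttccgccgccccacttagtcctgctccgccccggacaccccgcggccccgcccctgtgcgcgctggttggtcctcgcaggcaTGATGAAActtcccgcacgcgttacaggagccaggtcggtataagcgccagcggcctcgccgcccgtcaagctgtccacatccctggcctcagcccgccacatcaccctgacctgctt
CHAC1: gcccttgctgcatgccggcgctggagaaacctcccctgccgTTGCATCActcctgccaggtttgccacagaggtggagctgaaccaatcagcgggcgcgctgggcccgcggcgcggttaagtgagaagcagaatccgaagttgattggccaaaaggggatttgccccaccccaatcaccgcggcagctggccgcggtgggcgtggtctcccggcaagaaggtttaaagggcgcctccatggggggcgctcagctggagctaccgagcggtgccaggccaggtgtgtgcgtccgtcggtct
SLC3A2: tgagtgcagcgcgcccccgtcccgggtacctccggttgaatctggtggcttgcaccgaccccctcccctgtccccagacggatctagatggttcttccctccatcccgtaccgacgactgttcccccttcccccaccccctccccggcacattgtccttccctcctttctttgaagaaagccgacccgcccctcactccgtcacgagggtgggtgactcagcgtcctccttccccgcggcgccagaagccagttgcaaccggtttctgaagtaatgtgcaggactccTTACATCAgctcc
Changes over both states were -0.88 ± 0.22 (SE) for ASNS, -1.57 ± 0.34 for CHAC1 and -1.27 ± 0.22 for SLC3A2, all past the threshold in limma. Without MS275 they were -1.25, -1.91 and -1.75, and with it -0.48, -1.20 and -0.77.

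**Figure D3:**
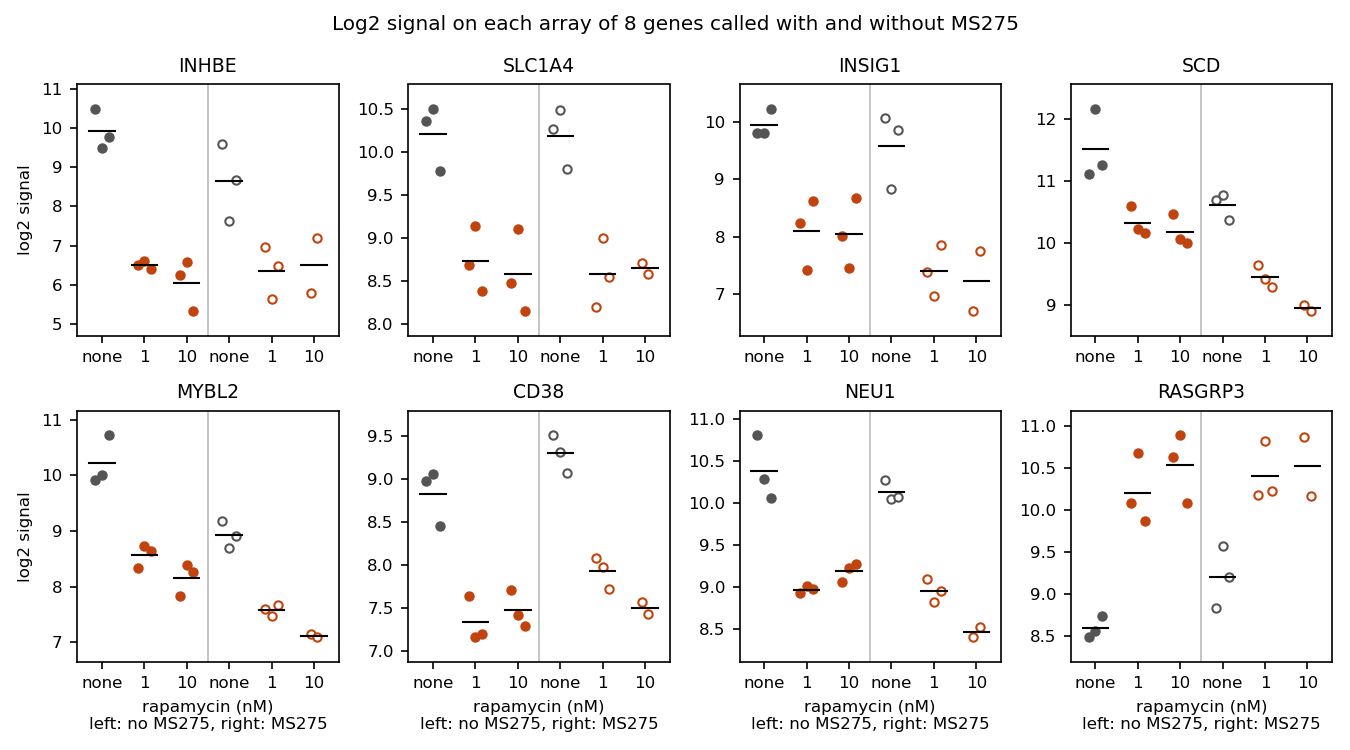
Log2 signal on each array (points) and group means (bars) for 8 genes called in both MS275 states, by rapamycin dose in nM, without MS275 (left, filled) and with MS275 (right, open). In every panel the rapamycin arrays lie on one side of the arrays without rapamycin of the same state, lower for 7 genes and higher for RASGRP3.

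Some lipid synthesis genes fell and none rose. Of 19 measured genes of sterol synthesis and uptake, 5 fell (26.3%, against 2.12% of all genes) and none rose. In both states 3 were called lower, and 17 of the 19 were lower without a threshold, against 30.9% of all genes. The number called in both states was 1 without MS275 replicate 1. The list's median change was -0.48. Of 13 measured fatty acid synthesis genes, 3 fell (23.1%) and none rose, with a median of -0.26.

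INSIG1, the membrane protein that retains SREBP in the endoplasmic reticulum and is itself an SREBP target, measured 9.80, 9.80 and 10.23 in controls and 7.42 to 8.67 (median 8.12) with rapamycin. With MS275 it measured 10.06, 8.83 and 9.86 against 7.39, 6.97, 7.86, 6.70 and 7.75. The arrays did not overlap in either state, and the change was -2.05 ± 0.24, or 4.16-fold lower (adjusted p = 0.000173). EBP, a sterol isomerase of late cholesterol synthesis, measured 10.76, 11.41 and 10.97 in controls and 9.82 to 10.27 (median 10.11) with rapamycin. Its values with MS275 were 10.64, 10.36 and 10.32, against 9.13, 9.30, 9.43, 8.78 and 9.10 in the combinations. Again the arrays were separate, and the change was -1.13 ± 0.13 (adjusted p = 0.000173). DHCR7, which catalyses the last step to cholesterol, changed by -1.22 ± 0.15 and passed in both states (-1.40 and -1.02). It was still called in both in 7 of the 17 fits that left out 1 array, and not with quantile normalization. FDPS, farnesyl diphosphate synthase, changed by -0.83 ± 0.14 and passed only without MS275.

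SREBF1, the gene of the SREBP-1 transcription factors, measured 11.79, 11.55 and 11.58 in controls and 9.30 to 10.58 (median 9.96) with rapamycin. With MS275 the values were 11.90, 11.89 and 11.01 against 10.86, 10.18, 9.23, 9.66 and 8.43. No arrays overlapped within a state, but the combinations spanned over 2 log2 units. The change was -1.82 ± 0.29 (adjusted p = 0.0014), and with MS275 alone as the baseline it missed the threshold (-1.93, adjusted p = 0.0549). SCD, which introduces a double bond into fatty acids, passed in both states. Its controls measured 11.11, 12.16 and 11.25 against 10.00 to 10.60 (median 10.19), and with MS275 it measured 10.69, 10.77 and 10.37 against 9.65, 9.42, 9.30, 9.005 and 8.90. The groups were separate, and the change was -1.30 ± 0.16 (adjusted p = 0.000197). FASN, fatty acid synthase, changed by -0.85 ± 0.21 (adjusted p = 0.0355), kept its call in 7 of 17 fits that left out 1 array, and 1 of its 2 probe sets moved that way. The sterol element letters TCACNCCAC were in 1 of 17 sterol windows, against 1.15% of all windows.

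Glycolysis was lower at several of its steps. Of 26 measured glycolysis and hypoxia response genes, 10 fell (38.5%, against 2.12% of all genes) and none rose. The list's median was -0.53 (-0.45 without and -0.57 with MS275), and 18 members were lower in both states, against 30.9% of all genes. The count of falls was 5 without control replicate 3, 5 without MS275 replicate 1 and 6 without MS275 replicate 3. PGAM1, phosphoglycerate mutase, was the 1 member called in both states, and in 7 of the 17 fits that left out 1 array it was still called in both. It measured 13.06, 12.84 and 13.39 in controls against 12.09 to 12.50 (median 12.39), and with MS275 12.74, 12.23 and 12.62 against 11.65, 11.82, 11.94, 11.70 and 11.63. Arrays were separate in both states by small margins, and the change was -0.76 ± 0.11 (adjusted p = 0.000534). GPI, the isomerase of the second step, changed by -0.89 ± 0.15 (adjusted p = 0.00191) and LDHA, which makes lactate, by -0.70 ± 0.13 (adjusted p = 0.00643), both with separate arrays in both states. PFKP, a phosphofructokinase, changed by -0.70 ± 0.14 (adjusted p = 0.00823) and was separate only without MS275. Of 23 genes of nucleotide, folate and pentose synthesis, 2 fell (8.7%, against 2.12% of all genes). They were TKT, transketolase (-0.67 ± 0.15), and SLC19A1, the reduced folate carrier (-0.59 ± 0.13). Neither kept its call with the probe set of highest spread in place of the one of highest mean. The list's count was 5 without both compressed arrays and 4 without control replicate 1, and 1 without control replicate 2 or 3 or MS275 replicate 1. Of 26 oxidative phosphorylation genes, 2 fell (7.69%, against 2.12% of all genes). They were NDUFA9 of complex I (-0.59 ± 0.13) and SDHC of complex II (-0.56 ± 0.13), and 4 of the 7 SDHC probe sets moved that way. Only 1 of these genes passed without control replicate 2 or 3 or MS275 replicate 1.

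Cell cycle genes made up the largest groups of falls. Of 36 measured genes of the G1/S transition and DNA replication, 16 fell (44.4%, against 2.12% of all genes) and none rose. In both states 33 were lower, against 30.9% of all genes. The median was -0.88, at -0.60 without and -1.15 with MS275, and 26 members fell without both compressed arrays. Of 34 measured mitosis genes, 19 fell (55.9%) and none rose, and all 34 were lower in both states. Their median was -1.22 without and -0.91 with MS275. The difference between the states was not past the threshold for any gene of these lists.

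MYBL2, the cell cycle transcription factor B-MYB, was 1 of the 3 genes with the smallest adjusted p, with CD38 and NEU1. It measured 9.92, 10.01 and 10.73 in controls and 7.82 to 8.73 (median 8.36) with rapamycin, and 9.18, 8.69 and 8.91 with MS275 alone against 7.60, 7.48, 7.68, 7.14 and 7.09. Arrays were separate in both states by about a log2 unit, and the change was -1.70 ± 0.16, or 3.25-fold lower (adjusted p = 2.82e-05). RRM2, a subunit of ribonucleotide reductase, measured 10.73, 11.23 and 12.004 in controls and 9.11 to 10.40 (median 9.81) with rapamycin. With MS275 its values were 9.92, 9.40 and 10.11 against 7.26, 7.83, 8.68, 6.95 and 7.51. The arrays were separate in both states, and the change was -1.83 ± 0.26 (adjusted p = 0.000534), a call lost with the gene's probe set of highest spread. TK1, thymidine kinase, measured 9.94, 9.03 and 10.32 in controls and 7.50 to 8.65 (median 8.05) with rapamycin. With MS275 its values were 9.99, 8.73 and 10.09 against 7.89, 7.96, 8.36, 7.32 and 7.54. Separation held in both states, by the narrow margin of 1 low array without rapamycin in each. The change was -1.74 ± 0.23 (adjusted p = 0.000447).

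BIRC5, which encodes survivin, a subunit of the chromosomal passenger complex, changed by -1.62 ± 0.22 (adjusted p = 0.000451), at -1.60 without and -1.65 with MS275. CDC45, of the replicative helicase, changed by -1.34 ± 0.16 (adjusted p = 0.000173), CDC25A, the phosphatase that activates CDK2, by -1.19 ± 0.15, and the helicase subunit MCM4 by -1.30 ± 0.17. NCAPH, a condensin subunit, changed by -1.48 ± 0.18 and GINS4, of the replication complex GINS, by -1.57 ± 0.26. All of these had separate arrays in both states. ATAD2, a bromodomain protein that works with E2F factors, changed by -1.56 ± 0.22, PRC1, which bundles spindle microtubules, by -1.31 ± 0.17, and the mitotic kinases AURKB by -1.32 ± 0.18 and AURKA by -1.20 ± 0.19. The calls of ATAD2, AURKA, AURKB and MCM4 were lost with the probe set of highest spread. RRM2, MCM4 and ATAD2 were called in both states, and kept that in 6 of 17 fits that left out 1 array. The same call was kept in 7 of the 17 fits for NCAPH, 11 for BIRC5 and TK1, 15 for CDC45 and 16 for CDC25A. TK1 was not called in both states without both compressed arrays. CDKN1A, the CDK inhibitor p21, was also lower, by -1.52 ± 0.26 (adjusted p = 0.00269). It measured 9.79, 8.09 and 9.26 in controls against 6.95 to 7.63 (median 7.19), and with MS275 10.50, 8.98 and 10.10 against 9.38, 8.31, 8.72, 8.18 and 8.46, where the arrays overlap. It was the 1 called member of 14 CDK inhibitors, D cyclins and CDK4/6 genes (7.14%, against 2.12% lower among all genes). CDKN1B, the inhibitor p27, measured 0.55 ± 0.35 and CCND2 -0.21 ± 0.22, and neither passed.

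The windows of mitosis genes held the letters of the cell cycle CHR element, TTTGAA on either strand, more often than those of replication genes. They were in 20 of 29 mitosis windows (69.0%) and in 1 of 30 G1/S windows (3.33%), against 11.9% of the windows of genes tested and 15.4% of all windows. In the 348 windows found for the genes that fell over both states, the share was 17.5%. Shown are 3 mitosis genes that fell, picked after their values were seen for a match just before the start, with TTTGAA in capitals. PLK1, polo-like kinase (chr16:23678639-23678938, plus strand), and CCNB2, cyclin B2 (chr15:59104896-59105195, plus strand), have it at positions -29 to -24. PRC1 (chr15:90994486-90994785, minus strand) has it at positions -20 to -15.
PLK1: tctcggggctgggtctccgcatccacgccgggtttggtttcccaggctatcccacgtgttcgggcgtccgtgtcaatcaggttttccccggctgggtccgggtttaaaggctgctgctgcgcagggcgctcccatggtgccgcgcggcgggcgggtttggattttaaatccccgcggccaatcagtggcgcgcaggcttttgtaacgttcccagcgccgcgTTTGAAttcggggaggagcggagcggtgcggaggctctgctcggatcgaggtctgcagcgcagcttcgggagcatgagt
CCNB2: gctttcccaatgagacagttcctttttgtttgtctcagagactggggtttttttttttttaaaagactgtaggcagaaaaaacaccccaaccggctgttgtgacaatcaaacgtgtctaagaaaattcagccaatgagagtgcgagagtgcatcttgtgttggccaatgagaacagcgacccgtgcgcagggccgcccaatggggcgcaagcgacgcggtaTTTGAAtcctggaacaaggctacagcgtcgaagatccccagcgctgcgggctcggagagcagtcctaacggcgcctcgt
PRC1: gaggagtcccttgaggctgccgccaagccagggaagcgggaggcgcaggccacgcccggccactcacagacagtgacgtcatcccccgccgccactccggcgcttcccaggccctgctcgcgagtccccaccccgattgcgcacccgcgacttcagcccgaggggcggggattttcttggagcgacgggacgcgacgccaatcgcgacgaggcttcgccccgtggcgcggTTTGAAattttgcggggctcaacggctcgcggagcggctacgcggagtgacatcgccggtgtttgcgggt
PLK1 changed by -1.31 ± 0.23 (SE), CCNB2 by -1.23 ± 0.23 and PRC1 by -1.31 ± 0.17, with adjusted p-values of 0.00293, 0.00477 and 0.000447 in limma.

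**Figure D4:**
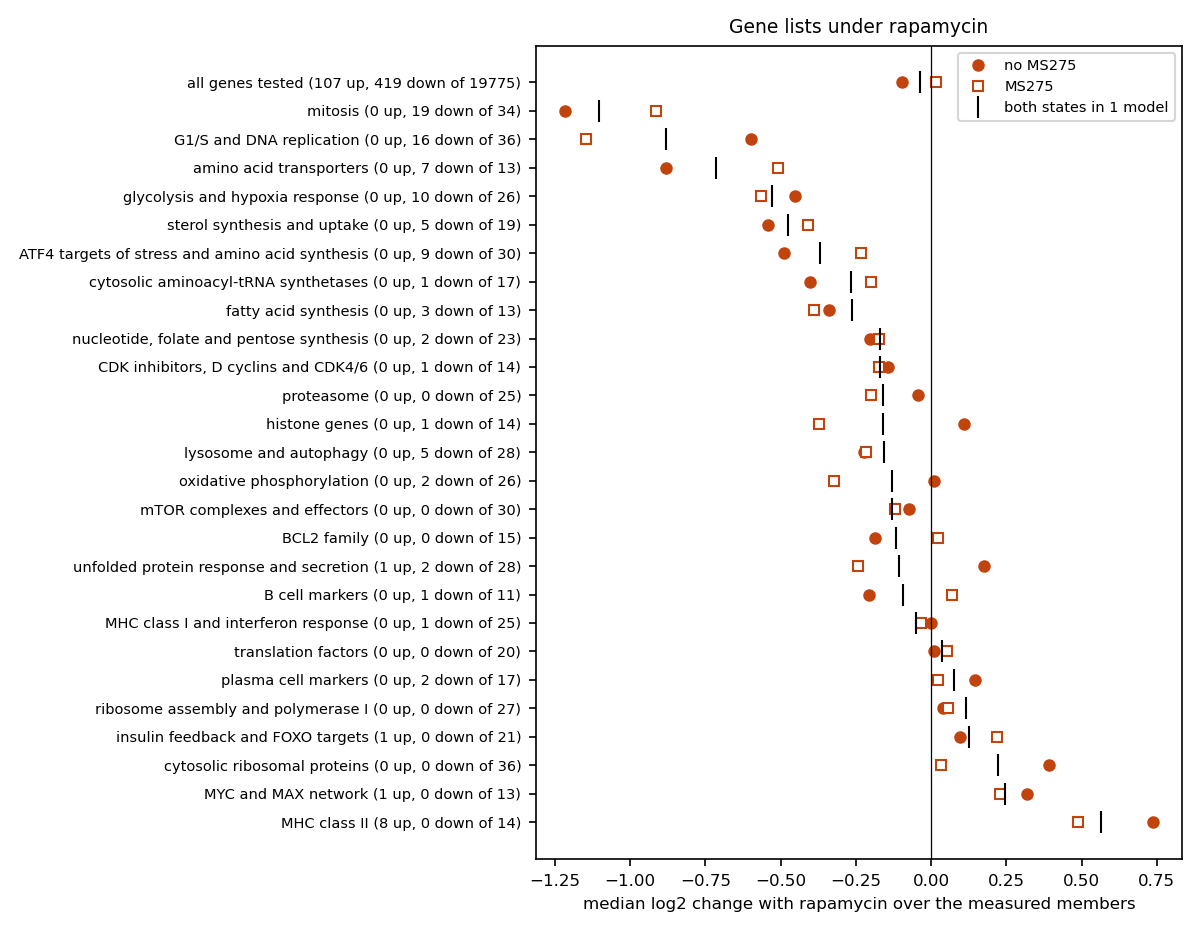
Median log2 change under rapamycin over the measured members of 26 gene lists and of all genes, without MS275 (filled circles), with MS275 (open squares) and over both states (bars), with the numbers of members called higher and lower. Mitosis, G1/S and amino acid transporter genes lie lowest and MHC class II genes highest, at a median of 0.56.

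MHC class II genes, whose products present antigen to CD4+ T cells, formed the only list, of 30, with more than 1 rise. Of 14 measured, 8 rose and none fell, against 0.541% higher among all genes, with a median of 0.56 (0.74 without and 0.49 with MS275), and 12 were higher in both states against 20.3% of all genes. The count was 5 when any 1 of 6 arrays was left out: control replicate 2, MS275 replicate 1, replicate 3 of 1 nM rapamycin or of the 1 nM combination, and replicate 2 of 10 nM rapamycin or of the 10 nM combination. Some HLA class II genes, the DRB genes among them, are close in sequence. Probe sets may read more than 1 of them, so the values of single HLA genes are uncertain. B cell markers had 1 member called of 11 (9.09%, against 2.12% lower among all genes). It was CD79B, which was lower (-0.89 ± 0.16, with 2 of its 3 probe sets moving that way), and 1 member rose without both compressed arrays.

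HLA-DPB1, a class II beta chain, measured 10.13, 10.11 and 9.89 in controls and 11.04 to 11.40 (median 11.17) with rapamycin. With MS275 it measured 10.66, 11.16 and 11.08 against 11.30, 11.72, 11.64, 11.51 and 12.003. Arrays were separate in both states, by a wide margin only without MS275. The change was 0.92 ± 0.12, or 1.89-fold (adjusted p = 0.000447). CD74, the invariant chain that escorts class II molecules, rose by 0.50 ± 0.08 (adjusted p = 0.00212) with separate arrays in both states, HLA-DRB1 by 0.71 ± 0.11 and the pseudogene HLA-DRB6 by 0.77 ± 0.11. HLA-DRB4 rose by 1.41 ± 0.20 and passed in both states, but only 1 of its 3 probe sets moved that way, and 1 of the 2 probe sets of HLA-DRB6 did.

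Of the 4 genes that rose in both states, RASGRP3, an exchange factor that activates Ras proteins and signals downstream of the B cell receptor, changed most. It measured 8.49, 8.56 and 8.74 in controls and 9.87 to 10.90 (median 10.36) with rapamycin. With MS275 it measured 8.83, 9.57 and 9.20 against 10.18, 10.83, 10.23, 10.87 and 10.17. Every rapamycin array exceeded every array without it. The change was 1.53 ± 0.18, or 2.88-fold (adjusted p = 0.000173). SAMD9L, an interferon-inducible growth inhibitor, measured 9.21, 8.97 and 9.03 in controls against 9.74 to 10.70 (median 10.11), and with MS275 7.67, 8.64 and 8.66 against 9.76, 9.52, 9.51, 9.53 and 9.32. Its arrays were separate in both states, and the change was 1.14 ± 0.16 (adjusted p = 0.000534). COQ8A, a protein of coenzyme Q synthesis, rose least but with little spread. It measured 8.61, 8.75 and 8.72 in controls against 9.20 to 9.46 (median 9.39), and with MS275 8.48, 8.35 and 8.54 against 9.17, 9.19, 9.18, 9.31 and 9.42. The change was 0.73 ± 0.08 (adjusted p = 0.000166), a call lost with the gene's probe set of highest spread. HLA-DRB4 was the other of the 4. With 1 array left out, calls in both states were kept in 12 of 17 fits for RASGRP3, 7 for SAMD9L and 5 for HLA-DRB4.

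Other rises with separate arrays in both states were smaller in one state or the other. FRAT1, a GSK3-binding protein of the Wnt pathway, changed by 1.06 ± 0.17, CXXC4, a Wnt inhibitor, by 0.86 ± 0.18 and ACVR2B, an activin receptor, by 0.80 ± 0.13. LINC00648, a long noncoding RNA, changed by 0.98 ± 0.20, TIGD1 by 0.93 ± 0.19, IQCB1, a protein of the primary cilium, by 0.84 ± 0.15 and the RNA-binding protein CELF6 by 0.80 ± 0.18. None of these passed in both states, and 2 of the 3 ACVR2B probe sets moved that way. The CELF6 call was lost without control replicate 2 or MS275 replicate 1, and the CXXC4 call with its probe set of highest spread. FBXO32, a ubiquitin ligase subunit and FOXO target, was the 1 of 21 insulin feedback and FOXO targets to pass (0.72 ± 0.15, adjusted p = 0.0134). That is 4.76% of the list, against 0.541% higher among all genes, and 2 members rose without both compressed arrays. IRS2 (-0.12 ± 0.11) and PIK3IP1 (-0.11 ± 0.21) did not pass.

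Plasma cell identity genes were mostly without a call, with CD38 as the clearest exception. CD38, a surface enzyme that consumes NAD, measured 8.98, 9.05 and 8.45 in controls and 7.16 to 7.71 (median 7.35) with rapamycin. MS275 alone gave 9.51, 9.31 and 9.07, and the combinations gave 8.08, 7.97, 7.72, 7.56 and 7.43. The arrays were separate in both states, and the change was -1.48 ± 0.13, or 2.79-fold lower (adjusted p = 2.82e-05), at -1.43 without and -1.54 with MS275. Of 17 measured plasma cell markers, 1 more fell, TNFRSF13B, which encodes the receptor TACI (-0.84 ± 0.17, adjusted p = 0.00813), and the list's median was 0.08. The 2 falls were 11.8% of the list, against 2.12% of all genes. SDC1 measured -0.46 ± 0.20 and did not pass. Of 28 genes of the unfolded protein response and secretion, DERL3 rose (0.53 ± 0.13) and EDEM1 (-0.72 ± 0.19) and SEC61A1 (-0.69 ± 0.16) fell. The rise was 3.57% of the list, against 0.541% of all genes, and the falls 7.14%, against 2.12%. The calls of DERL3, EDEM1 and SEC61A1 were kept in 7, 4 and 13 of the 17 fits that left out 1 array. With quantile normalization no gene of this list was called. Of 25 MHC class I and interferon response genes, only TAP1, a peptide transporter, passed (-0.48 ± 0.11). That is 4% of the list, against 2.12% lower among all genes.

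Lysosomal genes gave 5 falls and no rise among 28 measured genes of the lysosome and autophagy, with a median of -0.16. The falls were 17.9% of the list, against 2.12% of all genes. NEU1, lysosomal sialidase, measured 10.81, 10.28 and 10.06 in controls and 8.92 to 9.27 (median 9.03) with rapamycin. With MS275 the values were 10.27, 10.05 and 10.07 against 9.09, 8.82, 8.95, 8.40 and 8.52. Arrays were separate in both states by a wide margin, and the change was -1.34 ± 0.12, or 2.53-fold lower (adjusted p = 2.82e-05). GLA, alpha-galactosidase A, changed by -1.12 ± 0.18 (adjusted p = 0.00176), the cholesterol exporter NPC1 by -0.63 ± 0.12 and the protease CTSB by -0.62 ± 0.12. With its probe set of highest spread, CTSB measured -0.02 ± 0.21 (adjusted p = 0.99) and did not pass. The letters CACGTG, the E-box, were in 7 of 21 windows of this list (33.3%), against 8.9% of the windows of genes tested. Lists without a call held them as often, with 5 of 15 windows of translation factors (33.3%) and 7 of 22 of ribosome assembly genes (31.8%).

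With all arrays weighted equally, no member of the mTOR or ribosome lists was called over both states. DDIT4, the mTOR complex 1 inhibitor described above with the ATF4 targets, was called lower. None of 30 measured genes of the mTOR complexes and their effectors passed in limma, against 2.66% of all genes, and their median was -0.13. With so small a share of all genes called, short lists can hold none, so these counts alone do not set the lists apart. MTOR measured -0.02 ± 0.11 (SE), RPTOR -0.13 ± 0.09, RICTOR 0.98 ± 0.54, FKBP1A, which encodes FKBP12, 0.26 ± 0.20, and EIF4EBP1, which encodes 4E-BP1, -0.92 ± 0.36. None of 36 cytosolic ribosomal proteins, 27 ribosome assembly and polymerase I genes or 20 translation factors passed either, with medians of 0.22, 0.12 and 0.04. The ribosomal protein median was 0.39 without MS275 and 0.03 with it, and RPS6 measured 0.10 ± 0.07. In the contrast without MS275, 1 ribosomal protein gene rose. Without both compressed arrays 1 ribosomal protein gene and 1 translation factor rose. With the probe set of highest spread, 1 ribosomal protein gene rose and 1 gene of the mTOR list fell. With array weights, 26 ribosomal protein genes and 2 translation factors rose, and 5 mTOR pathway genes, 3 translation factors and 1 ribosome assembly gene fell, along with 7 proteasome genes. The mRNA of MYC, whose degradation the series title names, measured 0.33 ± 0.15 (adjusted p = 0.399) and its partner MAX 0.37 ± 0.21. MNT, a repressor that pairs with MAX, was the 1 called member of 13 genes of the MYC and MAX network (0.46 ± 0.12, adjusted p = 0.0418). That is 7.69% of the list, against 0.541% higher among all genes, and the call was kept in 5 of 17 fits that left out 1 array. None of 25 proteasome genes or 15 BCL2 family genes passed, again against 2.66% of all genes. BCL2L11, which encodes BIM, a BCL2 family member that promotes cell death, measured 0.72 ± 0.19 (adjusted p = 0.0552 in limma). It was past the threshold in 5 of 8 alternatives, among them the fit without both compressed arrays (adjusted p = 0.0146). Its highest adjusted p among the 8 was 0.544, and it passed in 3 of 17 fits that left out 1 array. A missed threshold does not show that these genes stayed at one level.

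A test of the difference between the states asked where rapamycin's effect depended on MS275. In limma, 2 genes (0.0101%) passed, both with a larger fall on MS275, and 759 (3.84%) had an unadjusted p under 0.05. DISP2, a membrane protein of the Dispatched family, measured 5.84, 5.92 and 5.79 in controls and 5.51 to 5.89 (median 5.59) with rapamycin. With MS275 alone it was higher, at 7.89, 8.05 and 7.68, and the combinations measured 6.38, 5.94, 6.34, 5.86 and 5.90. Rapamycin arrays overlapped the controls but lay below all arrays of MS275 alone. The change was -0.19 without (adjusted p = 0.593) and -1.79 with MS275 (adjusted p = 2.33e-05), a difference of -1.60 (95% confidence interval -2.05 to -1.15, adjusted p = 0.0217).

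C3AR1, the receptor for the complement fragment C3a, fell in both states but by different amounts. It measured 5.31, 5.55 and 5.05 in controls and 4.33 to 4.70 (median 4.45) with rapamycin. MS275 alone gave 8.06, 7.84 and 8.05, and the combinations gave 5.89, 5.35, 5.86, 5.42 and 5.36. Arrays were separate in both states, by over a log2 unit on MS275. The change was -0.82 without and -2.41 with MS275, a difference of -1.60 (95% confidence interval -2.09 to -1.11, adjusted p = 0.0293). Without MS275, DISP2 and C3AR1 both measured near the array medians (5.09 to 5.36), with and without rapamycin. Whether low signal limited their falls there was not tested. The number of genes past this test was 7 without control replicate 2, 1 without MS275 replicate 3, without replicate 2 at 1 nM rapamycin or without replicate 3 at 10 nM, and 2 without replicate 1 or 3 of the 1 nM combination. It was 0 without any 1 of the other 11 arrays. EMP2, an epithelial membrane protein, had a larger difference (-1.82) that did not pass (adjusted p = 0.24), nor did those of PDGFRL, NDUFB8 and H2BC12. The median 95% confidence interval of a difference between states reached 0.64 to either side, so a difference that missed the threshold may still be large.

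**Figure D5:**
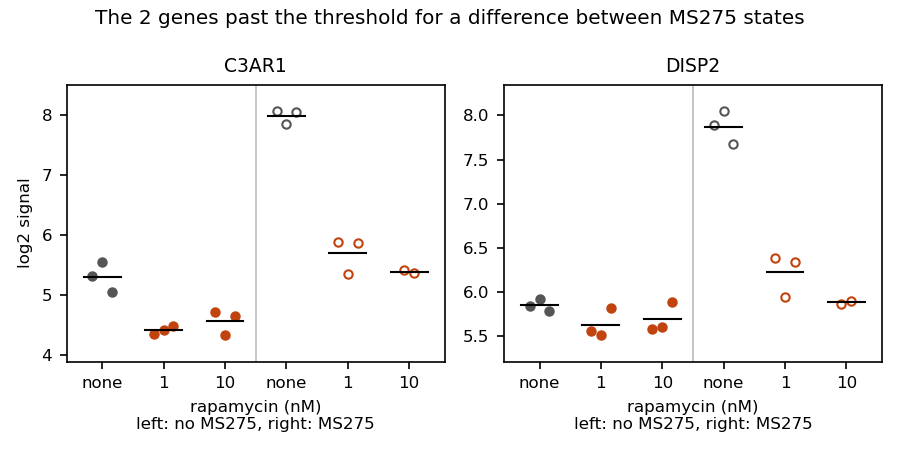
Log2 signal on each array (points) and group means (bars) of C3AR1 and DISP2, by rapamycin dose in nM, without MS275 (left, filled) and with MS275 (right, open). Both genes are highest on the 3 arrays of MS275 alone, and the combinations lie 1.79 (DISP2) and 2.41 (C3AR1) lower.

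The doses pooled above did not differ for any gene past the threshold. The limma contrast of 10 against 1 nM (5 against 6 arrays, MS275 as covariate) called 0 genes (0%), with 64 at an unadjusted p under 0.05 (0.324%), and confidence intervals for single genes reached a median of 0.39 to either side. Against the 6 arrays without rapamycin, which both doses share, 177 genes (0.895%) passed at 1 nM and 339 (1.71%) at 10 nM. The median of the mitosis list was -0.95 at 1 nM and -1.28 at 10 nM, and that of the G1/S list -0.81 and -0.96. The amino acid transporter median was -0.80 at 1 nM and -0.61 at 10 nM, and the MHC class II median 0.57 and 0.59. The dose groups were not balanced over the states, since the 10 nM combination had 2 arrays.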

How the data were processed

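Total RNA of L363 cells was hybridised to 17 one-colour arrays. The deposited values are log2 signals per probe set, and the submitters' processing notes name affy and RMA, with versions and settings not given in the sources used here. Array number and signal limit the precision. Of 54613 probe sets, 41091 had 1 gene symbol in the platform annotation, 1801 had several and 11721 had none, and 41037 of the singly named probe sets were matched to RefSeq. Nothing was renormalised or filtered. Fits used limma 3.58.1 in R 4.3.3 (lmFit and eBayes, Benjamini-Hochberg adjustment over 19775 genes, threshold 0.05). The main fit was also run on simulated arrays with independent noise. These held no compressed arrays and no shared replicate deviations, so they do not test the calls made here. The labels number replicates without saying that they were separate cultures, so p-values measure only the spread between these arrays. "Called", "rose", "fell" and "passed" mean past the threshold, "kept" means past it in a repeated fit, and errors are standard errors.

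The comparisons and the 30 gene lists (615 of 688 entries measured) were chosen with earlier results of these data known. Named genes were the 12 largest rises and falls with separate arrays, up to 8 per direction called in both states, the 4 smallest p-values of each list, the 6 smallest p-values for the difference between states, and genes of interest such as MTOR and MYC. Alternatives were a replicate block, leaving out each array or both compressed arrays, array weights, quantile normalization, a signal filter (mean log2 of 5, 12952 genes), the probe set of highest standard deviation, trend and robust eBayes, 6 group means and single doses.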

Additional observations from a re-analysis of the deposited data

Results flagged for a closer look

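The difference between rapamycin's effect with and without MS275 passed limma's test for 2 genes. For DISP2 the effect with MS275 minus the effect without was -1.60 on the log2 scale (adjusted p = 0.0217), and this call was kept in 6 of the 17 fits that left out 1 array. For C3AR1 it was -1.60 (adjusted p = 0.0293), kept in 3 of the 17. Over those fits the difference ranged from -1.70 to -1.51 for DISP2, with adjusted p from 0.00846 to 0.129, and from -1.72 to -1.47 for C3AR1, with adjusted p from 0.0124 to 0.178. The difference for both genes was thus close in size whichever array was left out, while its call was not kept. Without MS275 both genes had a low signal, near the array medians.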

How the results depend on the processing

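Whether equal replicate numbers mark pairs was not settled, since unequally numbered arrays were not compared, and the main fits left the numbers out. Deviations of equally numbered arrays correlated at 0.29 to 0.42 between control and 1 nM and at 0.49 to 0.75 between MS275 alone and the 1 nM combination. They correlated at -0.16 to 0.40 between control and 10 nM, and at -0.66 and 0.07 between MS275 alone and the 10 nM combination. The deviations of the 2 arrays of that combination are exact opposites, so the last 2 values are not free of each other. With the replicate block the counts were 854 over both states, 477 without MS275, 177 with MS275 and 90 in both, and they held all 526, 258, 104 and 52 genes called before. The count for the difference between states stayed at 2 and that for dose at 0. BCL2L11 passed with the block (adjusted p = 0.0124), when 2 BCL2 family genes rose and 1 fell.

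Without both compressed arrays the counts were 867 over both states, 263 with MS275 and 109 in both. With array weights, where replicate 1 at 1 nM weighed 11.3 and control replicate 1 0.114, they were 2613 over both states, 3584 without MS275, 101 in both, 12 for the difference and 1 for dose. Trend and robust settings gave 166 genes without MS275. With the 1 nM dose alone, 81 genes passed over both states, 0 without MS275, 5 with MS275, 0 in both and 0 for the difference. With the 10 nM dose alone these counts were 180, 0, 4, 0 and 0. Leaving out 1 array gave 369 to 786 over both states, 120 to 412 without MS275, 29 to 148 with MS275, 12 to 72 in both, 0 to 7 for the difference and 0 for dose. Quantile normalization, the signal filter, the probe set of highest standard deviation and the fit of 6 group means moved none of the counts by over 1.5 times.

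Of the 71 named genes called over both states, 59 kept the call whichever array was left out, 53 in all 8 alternatives that kept both doses and all arrays or dropped the compressed pair, and 50 in both kinds. SDHC changed sign with its probe set of highest standard deviation (0.25 ± 0.38 (SE), adjusted p = 0.906), which is another probe set of the gene.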
